A study of Rattus norvegicus with 150 samples.

Results

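Muscle that had carried nickel (Ni) pellets for 1, 3 or 6 months was compared with muscle that had carried tantalum (Ta), the sham metal, for the same times. The comparison took every Ni library (24) and every Ta library of those times (23), which is 47 of the 150 RNA-seq libraries of the study. Time was a blocking factor, so each gene received 1 Ni minus Ta difference shared by the 3 times. Libraries were chosen by their labels alone, and no measured value entered the choice.

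The study placed small metal cylinders in the gastrocnemius, the large calf muscle, of male Sprague-Dawley rats and sequenced RNA from that muscle at fixed times. Each rat carried 4 cylinders, 2 per limb, each 1 mm in diameter and 2 mm long. The groups used here were Ni at 1 month (8 libraries), at 3 months (8) and at 6 months (8), and Ta at 1 month (7), at 3 months (8) and at 6 months (8). Depleted uranium (DU), cobalt (Co) and the metal with the label P gave a further 71 libraries at the same 3 times, which are used for a second comparison.

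All animals had undergone surgery and carried a metal, so the Ta libraries stand for a wound and an implant, not for untouched muscle. The labels tie no library to a rat, and p-values therefore measure the spread between libraries. The Ni and Ta libraries held 12674115 to 18517974 counts each, with a median of 15445399.

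Nickel is a transition metal that leaves an implant as ions when it corrodes. In mammalian cells these ions are known to compete with iron at oxygen-sensing hydroxylases, to bind metallothioneins and, in people, to be a common cause of contact allergy. Tantalum carries a stable oxide layer and is widely used as an inert implant material. The counts are listed by Ensembl identifier and no name could be attached to any of them here, so the metallothionein, hypoxia, inflammation, muscle fibre and other gene groups could not be examined. The labelled tissue could not be checked against muscle markers for the same reason. Results are given by identifier, by abundance and by library.

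Over the 3 times together, 1 of 13253 genes tested differed between Ni and Ta muscle. It was ENSRNOG00000030187, which fell with Ni, with 0.00755% of the genes tested called (edgeR quasi-likelihood test, Benjamini-Hochberg adjusted p under 0.05). No gene was called higher with Ni in edgeR, whereas DESeq2 called 2 higher and 1 lower, and a model of all 150 libraries called 2 higher and 0 lower. ENSRNOG00000030187 did not pass in either (adjusted p of 0.613 with DESeq2 and 1 with the 150 libraries). At an unadjusted p under 0.05 there were 368 genes, 2.78% of those tested, of which 128 were higher and 240 lower with Ni. Across all genes tested, the log2 fold change had a median of -0.005.

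ENSRNOG00000030187 averaged 0.218 ± 0.823 CPM (read counts scaled to a common library size) in the Ni libraries and 7.91 ± 20.5 CPM in the Ta libraries (SD, n = 24 and 23). This was a log2 fold change of -5.13 ± 0.91 (SE), with a 95% interval of -6.96 to -3.31 and an adjusted p of 0.0122 in edgeR. The SDs exceed the means because a few libraries held most of the counts for this gene, while most libraries held none. A count was present in 6 of 24 Ni libraries and in 10 of 23 Ta libraries. The gene passed the filter on low counts through the Ta libraries, where it was higher. Its call, its fold change and the leave-one-out fits are therefore not independent of the filter.

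The Ni libraries at 1 month had 0, 0 and 0.393 CPM of ENSRNOG00000030187 as lowest, median and highest value, against 0, 0 and 43.6 CPM in Ta. At 3 months the values were 0, 0 and 4.04 CPM in Ni and 0, 1.62 and 89.1 CPM in Ta. At 6 months they were 0, 0 and 0.064 CPM in Ni and 0, 0 and 0.109 CPM in Ta, so that the gene was next to silent with both metals. The groups overlapped at every time. The difference rested on the Ta libraries replicate 4 (89.1 CPM), replicate 3 (22.2 CPM) and replicate 2 (18.5 CPM) at 3 months and replicate 5 (43.6 CPM) at 1 month. The highest Ni library was replicate 4 at 3 months, with 4.04 CPM. Without Ta replicate 5 at 1 month, or without Ta replicate 4 at 3 months, 0 genes were called over the 3 times, and the largest adjusted p of ENSRNOG00000030187 with 1 library left out was 0.186 in edgeR. Without all libraries of 1 time, whichever it was, 0 genes were called. At an unadjusted p under 0.05 there were 277 of 12706 genes without 1 month and 256 of 12878 without 3 months. Without 6 months there were 1531 of 13006. ENSRNOG00000030187 was tested only without the 6 month libraries in these fits (adjusted p = 0.162) and was under the filter on low counts in the other fits.

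No other gene passed the threshold. The genes of lowest unadjusted p among those with a mean of at least 1 CPM in Ni or Ta are described next, 2 of them higher and 1 lower with Ni. ENSRNOG00000048402 averaged 31.9 ± 126 CPM with Ni and 0.54 ± 0.457 CPM with Ta (SD, n = 24 and 23). The log2 fold change of 4.15 ± 0.98 (SE) had an interval of 2.18 to 6.13 and an adjusted p of 0.36 in edgeR. It passed in 2 of 12 alternatives, DESeq2 (adjusted p = 0.000518) and all 150 libraries in 1 model (adjusted p = 0.00307). ENSRNOG00000003666 averaged 1.97 ± 5.53 CPM with Ni and 0.227 ± 0.155 CPM with Ta, a log2 fold change of 2.68 ± 0.63 with the same adjusted p of 0.36. Both genes were low in the Ta libraries, none of which exceeded 1.41 CPM and 0.573 CPM in turn.

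A minority of the Ni libraries stood far above that level. For ENSRNOG00000048402 these were replicate 4 (620 CPM), replicate 7 (44.5 CPM), replicate 5 (34.3 CPM) and replicate 1 (6.78 CPM) at 3 months and replicate 7 (46.1 CPM) at 1 month. In all, 7 of 24 Ni libraries lay above every Ta library, 2 at 1 month, 5 at 3 months and 0 at 6 months. The other 17 overlapped the Ta libraries or lay below them. For ENSRNOG00000003666 the same 2 libraries were the highest, with 25.7 CPM in replicate 7 at 1 month and 11.2 CPM in replicate 4 at 3 months. Here too 7 Ni libraries exceeded every Ta library, 2, 4 and 1 of them at 1, 3 and 6 months. ENSRNOG00000003666 passed the filter on low counts through these 7 Ni libraries alone. Its count above Ta and its fold change are therefore not independent of the filter. Of the 13253 genes tested, 17 (0.128%) had at least 7 Ni libraries above every Ta library. Since the highest library of ENSRNOG00000030187 among the Ni libraries was also replicate 4 at 3 months, a single library holds the highest Ni value of 2 of these 3 genes.

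ENSRNOG00000059348 showed a different form, with libraries in a low and a high band. It averaged 17.6 ± 20.7 CPM with Ni and 47.4 ± 48.4 CPM with Ta (SD, n = 24 and 23), and its log2 fold change was -1.65 ± 0.39 (SE, adjusted p = 0.36 in edgeR). At 3 months the 8 Ni libraries spanned 7.5 to 15.6 CPM with a median of 10.6, whereas the Ta libraries spanned 7.27 to 103 CPM with a median of 72.7. At 6 months the 8 Ni libraries again stayed low, at 8.1 to 14.9 CPM with a median of 9.45. Ta spanned 9.36 to 177 CPM with a median of 12.5, and its highest libraries were replicate 7 (177 CPM) and replicate 6 (55.4 CPM). At 1 month both metals had libraries in both bands, with 7.54 to 102 CPM in Ni and 6.62 to 134 CPM in Ta. No Ni library lay outside the range of the 23 Ta libraries taken over the 3 times.

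**Figure D1:**
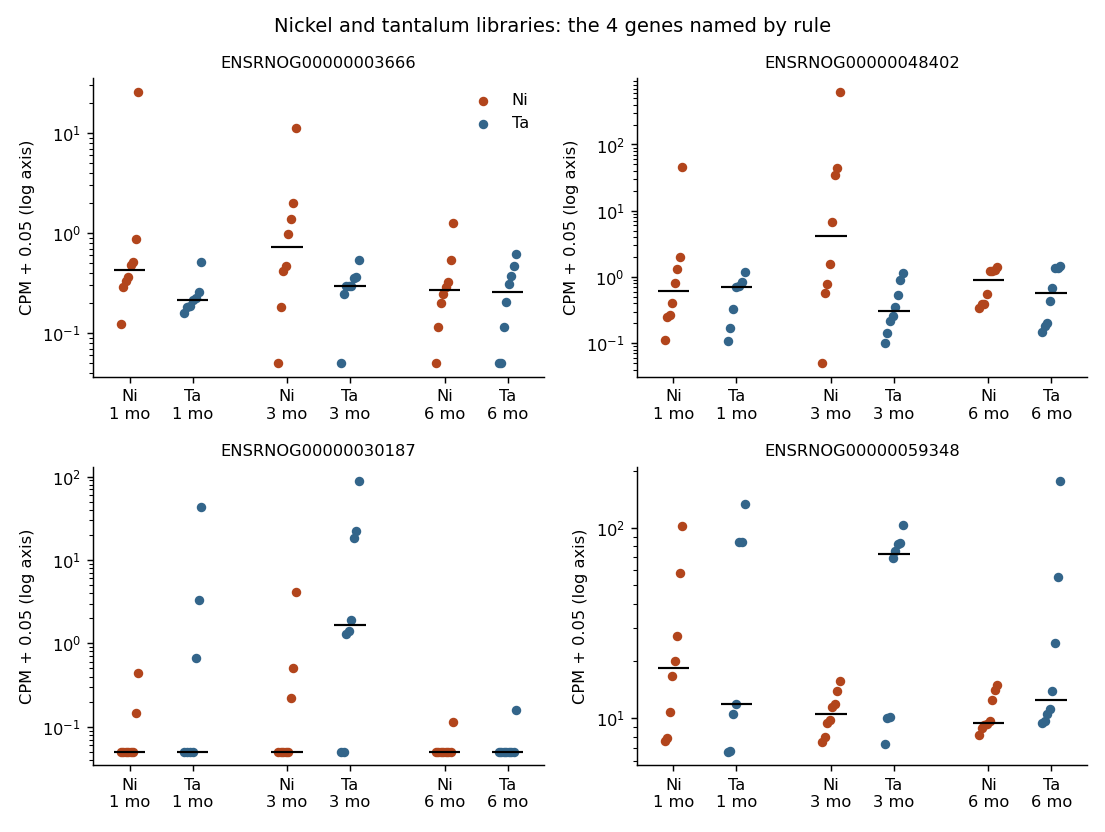
CPM plus 0.05 (log axis) of 4 genes in each Ni and Ta library at 1, 3 and 6 months, with points for libraries and lines for group medians. ENSRNOG00000030187 passed the threshold over the 3 times. The highest Ni points of the upper panels reach 25.7 and 620 CPM, and the highest Ta points of the lower panels reach 89.1 and 177 CPM.

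The size of difference that these libraries leave room for was read from the 95% intervals of the shared Ni minus Ta difference. The median SE of the log2 fold change was 0.13. For 12568 of 13250 genes with an interval (94.9%), the whole interval lay within 2-fold in either direction, and for 10604 (80%) within 1.5-fold. The share within 2-fold was 76.3% among genes under 1 CPM, 95.3% at 1 to 10 CPM, 99.1% at 10 to 100 CPM and 98.8% at 100 to 1000 CPM. Among the 93 most abundant genes, of 1000 CPM and over, it was 94.6%, and 0 of these had an unadjusted p under 0.05. Estimates beyond 2-fold were found for 50 genes, 25 higher and 25 lower with Ni, and 25 of the 50 averaged under 1 CPM. An interval within 2-fold bounds the average over the 3 times and does not speak to differences present at 1 time or in a few libraries.

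The time terms of the same fit give a measure of what it called elsewhere. With Ni and Ta libraries together, 981 genes differed between 3 months and 1 month (434 higher and 547 lower at 3 months, 7.4% of genes tested). Between 6 months and 1 month 2066 genes differed (670 higher and 1396 lower at 6 months, 15.6%). The time since surgery also moves with the age of the animals, and the pair cannot be told apart.

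Each time was then given its own Ni minus Ta difference in a joint model of the 6 groups. Whether that difference varied between the times was tested with both metal-by-time terms together. No gene was called (0%), with a lowest adjusted p of 0.162 in edgeR, although 1589 genes (12%) had an unadjusted p under 0.05. By DESeq2, 4 genes were called. At 1 month 1 gene fell with Ni and none rose (0.00755% called), and 2203 genes (16.6%) had an unadjusted p under 0.05, of which 1536 were higher and 667 lower with Ni. At 3 months 2 genes rose and none fell (0.0151%), with 454 genes (3.43%) under the unadjusted limit, 201 higher and 253 lower. At 6 months no gene was called in edgeR (0%) or in DESeq2, the lowest adjusted p in edgeR was 0.999, and the 353 genes under the unadjusted limit (2.66%) were 61 higher and 292 lower with Ni.

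The gene that fell at 1 month was ENSRNOG00000019823. The Ni libraries at 1 month had 0.196, 0.732 and 1.19 CPM as lowest, median and highest value, against 0.164, 0.668 and 61.7 CPM in Ta. The medians were alike, and the difference came from 2 of 7 Ta libraries, replicate 2 at 61.7 CPM and replicate 4 at 43 CPM. Its log2 fold change was -4.32 ± 0.74 (SE, adjusted p = 0.00626 in edgeR), and 0 genes were called at 1 month without either of those libraries. Without Ni replicate 6 of that time 2 genes were called at 1 month, and 1 gene was called for a change of the difference with time. At 3 months its log2 fold change was -0.17 ± 0.75 and at 6 months 0.08 ± 0.76.

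ENSRNOG00000048402 rose at 3 months, with 0, 4.14 and 620 CPM as lowest, median and highest value in Ni and 0.0495, 0.257 and 1.1 CPM in Ta. This was a log2 fold change of 7.79 ± 1.37 (SE, adjusted p = 0.0127 in edgeR). At 6 months the corresponding values were 0.296, 0.84 and 1.34 CPM in Ni and 0.0954, 0.514 and 1.41 CPM in Ta, a log2 fold change of 0.14 ± 1.33. ENSRNOG00000048456, the other gene called at 3 months, had 3.37, 5.3 and 224 CPM in Ni and 3.3, 3.8 and 6.8 CPM in Ta. The difference was a log2 fold change of 3.46 ± 0.63 (SE, adjusted p = 0.0138 in edgeR). Here the high libraries were replicate 3 (224 CPM) and replicate 1 (131 CPM). Neither was the highest for ENSRNOG00000048402, of which replicate 3 had 0.524 CPM. Replicate 1 had 6.78 CPM of it and so lay above every Ta library for both genes. The other 6 Ni libraries at 3 months lay between 3.37 and 6.83 CPM, about the level of Ta. The number of genes called at 3 months was 0 without Ta replicate 1, 2 or 3 of that time and 1 without Ta replicate 4 or Ni replicate 1, 3 or 4.

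No gene passed the test for a change of the difference with time, and the lowest unadjusted p among genes of at least 1 CPM belonged to ENSRNOG00000017150 (adjusted p = 0.276 in edgeR's quasi-likelihood test). The log2 fold change of ENSRNOG00000017150 was 0.85 ± 0.21 (SE) at 1 month, 0.06 ± 0.20 at 3 months and -0.57 ± 0.20 at 6 months. Its highest Ni library at 1 month was replicate 8 with 23.1 CPM, against a Ta maximum of 7.7 CPM. At 6 months the Ni maximum was 11.1 CPM, against 24.6 CPM in Ta replicate 4 and 19.8 CPM in Ta replicate 7. These Ni and Ta libraries are among 4 that stood apart from the rest. ENSRNOG00000019823, described above, had the next lowest p and the same adjusted p.

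The 4 were replicates 3 and 8 of Ni at 1 month and replicates 4 and 7 of Ta at 6 months. TMM factors scale a library by a trimmed mean of its gene log ratios to a reference library. The factors were 0.736 and 0.749 for Ni replicates 3 and 8 and 0.586 and 0.681 for Ta replicates 4 and 7. No other library was under 0.8. The 10 most abundant genes took 34.3% and 35.4% of counts in Ni replicates 3 and 8 and 42.9% and 38.2% in Ta replicates 4 and 7, against 22.3% to 38.6% in the other 43 libraries. The first principal component of log2 CPM, with 24.4% of the variance, placed them at 61.2 to 88.5 and the other 43 libraries at -62.7 to 37.5. The labels give no lane or batch for any library.

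**Figure D2:**
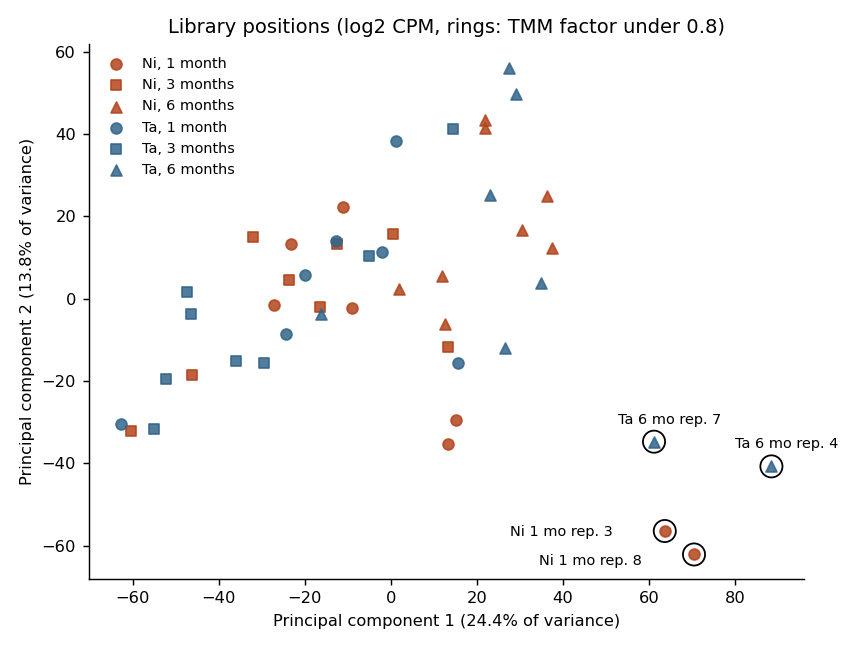
Positions of the 47 libraries on the first 2 principal components of log2 CPM, which hold 24.4% and 13.8% of the variance, with colour for the metal and shape for the time. The ringed libraries, 2 of Ni at 1 month and 2 of Ta at 6 months, lie at 61.2 or above on the first component, and Ni and Ta overlap in the rest.

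Of these libraries, 1 pair is Ni and the other Ta, at opposite ends of the time course. They were picked for their low TMM factors after the data were seen. Whether they set the differences at 1 and 6 months was not tested. Leaving out 1 other library also moved the count at an unadjusted p under 0.05 at 1 month. It was 1676 without Ta replicate 8 and 2887 without Ni replicate 4 of that time. The fits without the 4 libraries tested 13314 genes, and the fits with them 13253. Without the 4 libraries the genes with an unadjusted p under 0.05 numbered 582 at 1 month, against 2203 with them. At 6 months they numbered 132, against 353 with them. For the change of the difference with time they numbered 360, against 1589 with the 4. At 3 months, where none of the 4 belongs, the number was 661 without them and 454 with them. Over the 3 times together it was 510 without them and 368 with them, and 0 genes were called. ENSRNOG00000030187, of which the 4 libraries held at most 1 read each, had a log2 fold change of -5.03 (adjusted p = 0.124) without them, against -5.13 with them. At 1 month, too, 0 genes were called without the 4 libraries.

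Among 11676 genes of at least 1 CPM, the Ni minus Ta differences at 1 and 6 months ran in opposite directions across genes (Pearson r = -0.47, Spearman rho = -0.58), and 26.7% of genes had the same sign. Genes are not independent replicates, and these values describe the libraries at hand. Without the 4 libraries r was -0.11, rho was -0.09 and 47.5% of genes had the same sign. The differences at 1 and 3 months had r = 0.21 and 61.5% of genes with the same sign (0.12 and 55.7% without the 4 libraries). At 3 and 6 months r was -0.17 with 39.9% of the same sign, and 0 with 56.7% without the 4. With all 47 libraries, 572 of these genes (4.9%) were higher with Ni at all 3 times and 1065 (9.12%) were lower at all 3. No library is shared between these 3 differences.

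**Figure D3:**
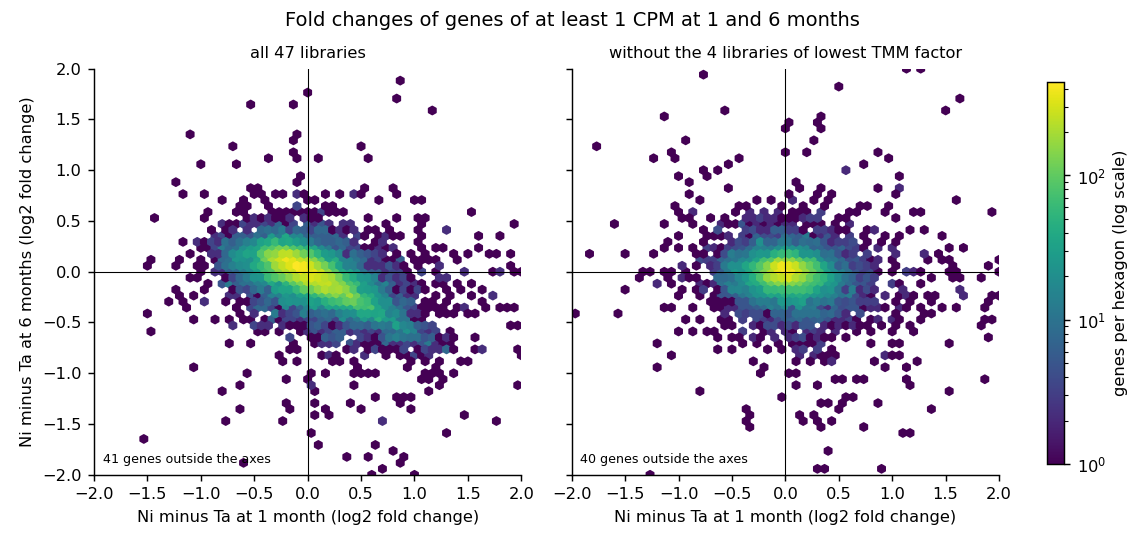
Log2 fold change of Ni against Ta at 1 month (horizontal) and at 6 months (vertical) for 11676 genes of at least 1 CPM, as gene counts per hexagon on a log colour scale, for all 47 libraries on the left and without the 4 libraries with a TMM factor under 0.8 on the right. The slanted cloud on the left (r = -0.47) is close to round on the right (r = -0.11).

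With all 47 libraries, the 4 of low TMM factor included, the directions of abundant genes at 1 and 6 months were opposed. The counts and intervals that follow were not repeated without those 4 libraries. Of the 916 genes at 100 to 1000 CPM, 212 were higher and 32 lower with Ni at 1 month at an unadjusted p under 0.05, with a median log2 fold change of 0.12. At 3 months 22 of them were higher and 3 lower, with a median of 0.07. At 6 months 2 of them were higher and 27 lower, with a median of -0.06. Over the 3 times, 0 were higher and 6 lower at the unadjusted limit, while the median was 0.04 and 29% of the log2 fold changes were below 0. Single times also left more room for a difference than the shared fit. The 95% interval lay within 2-fold for 70.6% of genes at 1 month, 81.2% at 3 months and 79.6% at 6 months, and estimates beyond 2-fold numbered 475 (389 higher, 86 lower with Ni), 253 (107 higher, 146 lower) and 162 (43 higher, 119 lower) at these times.

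The spread between libraries of a group differed between the metals, and in opposite senses at different times. At 1 month the median SD of a gene's log2 CPM was 0.494 in Ni and 0.361 in Ta, and 69.5% of genes had the larger SD in Ni. At 3 months it was 0.363 in Ni and 0.448 in Ta, with 32.8% of genes more variable in Ni. At 6 months it was 0.28 in Ni and 0.452 in Ta, with 20.7% more variable in Ni. Without the 4 libraries the medians were 0.357 in Ni and 0.361 in Ta at 1 month, and 0.28 in Ni and 0.324 in Ta at 6 months. The Ni libraries at 6 months were the most uniform of the 6 groups, each with a median correlation of 0.959 to 0.972 to the others of its group.

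Genes that were high in single libraries were counted as those more than 4-fold above every Ta library of the same time, on the scale of log2 CPM with a prior count of 2. Among the Ni libraries, replicate 7 at 1 month had 74 such genes, replicate 3 at 1 month 46, replicate 6 at 3 months 41, replicate 8 at 1 month 21 and replicate 4 at 3 months 17, and each of the others had 0 to 8. Each Ta library was set against the remaining Ta libraries of its time in the same way. Replicate 5 at 1 month then had 41, replicate 6 at 6 months 36 and replicate 5 at 6 months 18. Over all Ni libraries 215 genes were counted, of which 189 (87.9%) were high in 1 library only, 21 in 2 and 5 in at least 3. Over all Ta libraries 165 genes were counted, and 145 of them (87.9%) were high in 1 library only. A Ta library had 1 Ta library fewer to exceed than a Ni library, so the totals of the metals are not directly comparable. ENSRNOG00000048402 and ENSRNOG00000048456 were among the 5 genes high in at least 3 Ni libraries. The Ni libraries replicate 7 at 1 month and replicate 4 at 3 months shared 4 of these genes, which is 5.41% of the genes of the first and 23.5% of the genes of the second. Pairs were examined only between the 1 and 3 month Ni libraries named above, and the other pairs shared 0. Ni libraries with 0 to 8 such genes were not paired.

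Nickel muscle was also set against the other implanted metals, which share no Ta library with it. Against the mean of Co, P and DU over the same 3 times, 0 of 14505 genes were called (0%) in edgeR, with 2048 genes at an unadjusted p under 0.05 and 26 genes called by DESeq2. Against each metal in turn, a comparison added with the data in view, the counts were unequal. Ni and Co differed in 3457 genes (23.8%), 685 higher and 2772 lower with Ni. Ni and DU differed in 761 genes (5.25%), 207 higher and 554 lower with Ni. Ni and P differed in 7 genes (0.0483%), all higher with Ni, 3 of them by more than 2-fold. These 3 comparisons share the Ni libraries, and the differences between their counts were not tested.

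The genes named above held different places among the metals. For ENSRNOG00000048402 the Ni libraries at 3 months, with a median of 4.14 CPM and a highest value of 620, were set beside Co, with 19.9, 1500 and 11300 CPM as lowest, median and highest value. The medians at 3 months were 1.02 CPM in P and 0.443 CPM in DU, and the highest values 4.09 CPM in P and 2.18 CPM in DU. At 6 months DU replicate 8 had 46.4 CPM, a single high library above the 1.34 CPM that Ni reached at that time. Its log2 fold change of Ni against Co over the 3 times was -5.43 ± 0.98 (SE, adjusted p = 5.85e-06 in edgeR). Against P it was 3.61 ± 1.02 (adjusted p = 0.161) and against DU 1.51 ± 1.24 (adjusted p = 0.587). ENSRNOG00000003666 had a highest value at 3 months of 11.2 CPM in Ni, 789 CPM in Co, 0.633 CPM in P and 8.98 CPM in DU, up to 2.94 CPM in DU at 6 months, and a log2 fold change of Ni against Co of -4.80 ± 0.72 (adjusted p = 1.04e-07 in edgeR).

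**Figure D4:**
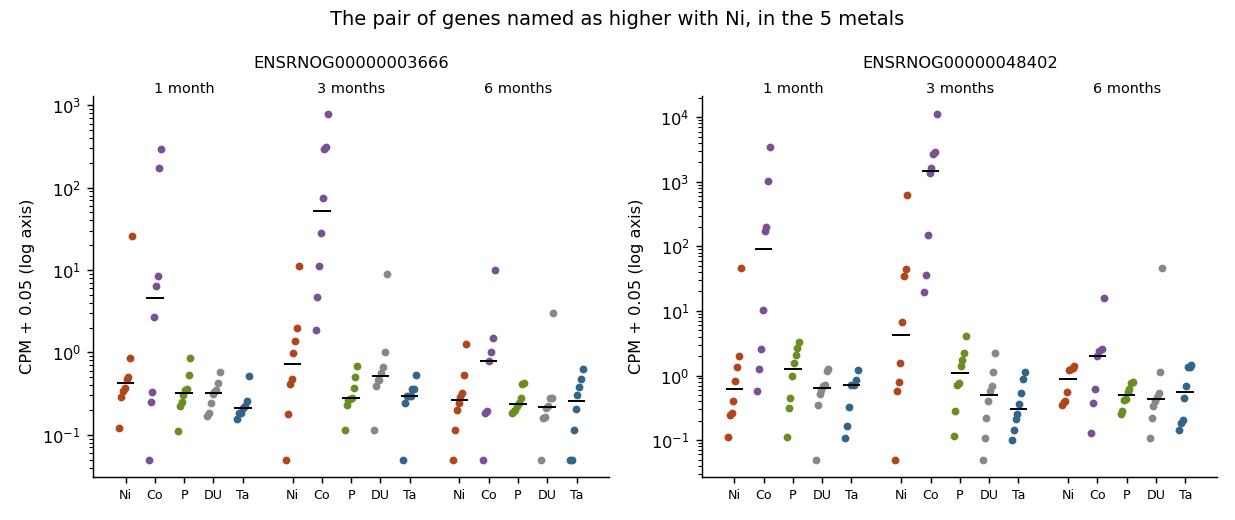
CPM plus 0.05 (log axis) of 2 genes in each library of Ni, Co, P, DU and Ta at 1, 3 and 6 months, with points for libraries and lines for group medians. At 3 months the Ni libraries of ENSRNOG00000048402 reach 620 CPM, the Co libraries 11300 CPM and the Ta libraries 1.1 CPM.

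ENSRNOG00000030187, low in Ni against Ta, also had lower highest values in the other metals than in Ta. Over the 3 times these were 4.04 CPM in Ni, 8.84 in Co, 0.0644 in P and 0.824 in DU, against 89.1 in Ta. A count was present in 15 of 23 Co libraries, against 10 of 23 Ta libraries. The median at 1 month was 0.524 CPM in Co and 0 CPM in Ta, and at 3 months 1.46 and 1.62 CPM. The gene was lower in Ni than in Co (log2 fold change -2.69 ± 0.61, adjusted p = 0.000343 in edgeR). It was higher in Ni than in P (adjusted p = 0.0213 in edgeR). The P libraries held a count in 1 of 24 libraries, so no fold is given against P. Its mean was 0.218 CPM in Ni, 1.3 CPM in Co, 0.00268 CPM in P and 0.048 CPM in DU.

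ENSRNOG00000059348 had its high band in the other metals as well, reaching 121 CPM in Co, 248 CPM in P and 279 CPM in DU, against 102 CPM in Ni. Its log2 fold change of Ni against their mean was -0.72 ± 0.43 (SE, adjusted p = 0.445 in edgeR). The Ta libraries that were high in ENSRNOG00000019823 at 1 month had no counterpart in the other metals, where no library of the 3 times exceeded 0.742 CPM in Co, 0.709 CPM in P and 0.872 CPM in DU, against 1.19 CPM in Ni. Over the 3 times this gene was higher in Ni than in Co (log2 fold change 0.75 ± 0.20, adjusted p = 0.00267 in edgeR) and than in DU (0.65 ± 0.20, adjusted p = 0.0335), and against P its log2 fold change was 0.77 ± 0.20 with an adjusted p of 0.107. ENSRNOG00000048456 was high in single libraries of other metals, with up to 108 CPM in Co, 86.6 CPM in P and 97.3 CPM in DU, and its log2 fold change of Ni against their mean was 0.87 ± 0.42 (adjusted p = 0.34 in edgeR).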

How the data were processed

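The deposited table holds raw read counts for each gene and library, which the authors had not normalized. Per the labels' protocols, stranded libraries came from 1000 ng of RNA each, were sequenced paired-end at 100 bases, and shared lanes by 10. Per the submitters' processing notes, HISAT2 2.0.5, featureCounts 1.5.0-p3 and the rat build Rnor_6.0 were used. The annotation release and strand setting are not given in the sources used here. Reads of genes that overlap or are near-identical may therefore be split.

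Genes passing filterByExpr were tested with edgeR 4.0.16 (TMM, robust dispersions, glmQLFit with robust=TRUE, R 4.3.3). Benjamini-Hochberg adjustment covered all genes tested, with a threshold of 0.05. An SE is the log2 fold change over the square root of F, and intervals are 95%. CPM printed for named genes were scaled by TMM factors from the 150 libraries. Abundance classes, the limit of 1 CPM and log2 CPM used factors from the 47 Ni and Ta libraries. A prior count of 2 entered log2 CPM. The test was checked on simulated data. No within-group pair of libraries agreed within sampling noise (lowest chi-square per degree of freedom 10.8 over 161 pairs).

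Alternatives were RLE factors, no filter, DESeq2 1.42.0, limma 3.58.1 voom with weights, all libraries in 1 model, a replicate block, legacy=FALSE, single times left out and each library left out. Library totals without TMM factors, leaving out the 4 libraries of lowest TMM factor, Co at 3 months or 1 DU library, and the comparisons with single metals were added after seeing the data. The reference table used (assembly GRCr8) matched 0 of 32545 identifiers, so the 35 lists of processes and cell types could not be tested. The members and lists were chosen with earlier results of these data known. Named genes are, in each direction and at a mean of at least 1 CPM, the called gene of 1 sign at all times and then those of lowest p up to 2, genes called at a single time (named after their values were seen), and the pair of lowest p for a change with time.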

Additional observations from a re-analysis of the deposited data

Results flagged for a closer look

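Single libraries lay far from the rest of their group in 16 of 54 sets of values examined, by a gap test (Dixon's). For normally distributed values it is triggered in about 1 in 20 groups. CPM are skewed, and most sets are of genes named for their Ni minus Ta tests. The 16 of 54 can therefore not be set against that rate. The sets are not independent, since a library can recur. For ENSRNOG00000003666 the libraries were Ni replicate 7 at 1 month (25.7 CPM), Ni replicate 4 at 3 months (11.2 CPM), Ni replicate 3 at 6 months (1.22 CPM) and Ta replicate 4 at 1 month (0.462 CPM). For ENSRNOG00000048402 they were the same Ni libraries at 1 month (46.1 CPM) and 3 months (620.0 CPM). ENSRNOG00000030187 had Ni replicate 7 at 1 month (0.393 CPM), Ni replicate 4 at 3 months (4.04 CPM) and Ni replicate 3 at 6 months (0.064 CPM). In Ta it had replicate 5 at 1 month (43.6 CPM), replicate 4 at 3 months (89.1 CPM) and replicate 8 at 6 months (0.109 CPM). At 6 months the values of ENSRNOG00000030187 are 1 read in Ni replicate 3 and 2 reads in Ta replicate 8 with no read in the other libraries of the group, a case in which the gap is the whole range whatever the value. Ni replicate 4 at 6 months was far out for ENSRNOG00000048456 (22.7 CPM), and Ta replicate 7 at 6 months for ENSRNOG00000059348 (177.0 CPM). Of the measures per library, Ni replicate 8 at 6 months had a low TMM factor for its group (0.938) and Ni replicate 1 at 6 months a low median correlation to its group (0.959).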

How the results depend on the processing

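Over the 3 times, where 1 gene was called, lower with Ni, the count was 7 without a filter on low counts (5 higher, 2 lower), 3 with DESeq2 (2 higher, 1 lower), 2 with all 150 libraries in 1 model (2 higher, 0 lower), 2 with legacy=FALSE (1 higher, 1 lower), 0 with weighted voom (474 genes at an unadjusted p under 0.05), 0 without any single time, and 0 without the 4 libraries of lowest TMM factor. For the change with time (0 called), DESeq2 called 4. At 1 month (1 called), the count was 3 without a filter, 3 with DESeq2, 0 with weighted voom and 0 without the 4 libraries. At 3 months (2 called, 2 higher and 0 lower), DESeq2 called 5 and weighted voom called 1 higher and 1 lower. Against the mean of Co, P and DU (0 called), the count was 117 without a filter, 32 with weighted voom, 26 with DESeq2, 5 without Co at 3 months and 1 without DU replicate 2 at 3 months. The causes were not tested. RLE factors moved no count. Leaving out each of the 47 libraries in turn gave 0 to 1 calls over the 3 times, 0 to 1 for the change with time, 0 to 2 at 1 month, 0 to 3 at 3 months and 0 at 6 months. Replicate numbers did not pair the samples (7 of 23 same-numbered pairs correlated above 0.1, median -0.003, 5 correlated best with their own number). They share only a number, and a replicate block gave 0 calls over the 3 times, 0 at 1 month and 0 at 3 months. None of the fits run for single genes (none for ENSRNOG00000017150, and 40 of 47 leave-one-out fits for ENSRNOG00000003666) gave a difference of the opposite sign. The leave-one-out fits missing for ENSRNOG00000003666 were those without 1 of the Ni libraries that carried it over the filter. ENSRNOG00000030187 passed in 4 of 10 alternatives (adjusted p 0.00683 to 1) and in 45 of 47 leave-one-out fits. At 3 months ENSRNOG00000048402 passed in 4 of 6 alternatives and 43 of 47 leave-one-out fits. ENSRNOG00000048456 passed there in 4 of 6 and 41 of 47. At 1 month ENSRNOG00000019823 passed in 2 of 5 alternatives and 45 of 47 leave-one-out fits. Intervals were widest for genes under 1 CPM. Alternatives for gene lists were not run.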
